A study of Caenorhabditis elegans with 15 samples.

Results

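The comparison described here set KIN17(K23N) animals of C. elegans against the smg-4 control, and it used 6 of the 15 libraries of the series. The 3 KIN17(K23N) libraries are those of strain SZ345, which carries unc-73(e936az30) and dxbp-1(az121) on chromosome I together with smg-4(az152) on chromosome V. The 3 control libraries are those of strain SZ340, which carries smg-4(az152) alone. All animals of both strains therefore carry a null allele of smg-4, a gene of nonsense-mediated decay, so that transcripts with early stop codons can be kept. The worm homolog of KIN17 is dxbp-1, and K23N changes a lysine of its product to an asparagine. The control has neither the dxbp-1 allele nor the unc-73 allele, so the effects of these alleles and of any other base that differs between the strains cannot be told apart. Each genotype was represented by 1 strain. Whole worms of mixed stage were grown at 20 degrees C, and the study calls the libraries of poly(A) RNA of a strain biological replicates. The other 9 libraries enter the fit for the spread between replicates and a few direct comparisons. They are 3 of KIN17(M107I), with unc-73(az63) and dxbp-1(az52), 3 of PRCC(I371F), with prcc-1(az122), and 3 of PRCC(null), with prcc-1(gk5556), all with the same smg-4 allele.

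KIN17 is a conserved protein with a zinc finger and a winged helix that has been found in spliceosomes before the first catalytic step. PRCC joins the spliceosome at about the same time. A 5’ splice site is first paired with U1 snRNA and is then handed to U6 snRNA, and a neighbouring site can be chosen at that step. A 3’ splice site of C. elegans usually ends in a run of U followed by CAG, and the U2AF proteins bind it directly. Where a second AG lies a few bases upstream of such a site, some introns are joined at either AG, and the use of the upstream AG differs between the germline and the somatic tissues of the worm.

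Splicing was measured as PSI, the percentage of the transcripts of an event that used 1 of its forms. For alternative 3’ events PSI gives how often the upstream site was used, and for alternative 5’ events how often the downstream site was used. ΔPSI is the mean of the KIN17(K23N) libraries minus the mean of the control libraries, in percentage points. A PSI was present in all 6 libraries for 12870 alternative 3’ events, 15848 alternative 5’ events and 2311 events of 6 annotated classes. Reads are not in the tables, so how many stand behind a PSI is unknown, and single libraries carry no interval. Between 33257 and 33839 of the 5’ and 3’ events had a PSI in each of the 6 libraries. A PSI of 0 or 100% made up 55.0% to 55.5% of these values in the KIN17(K23N) libraries and 58.5% to 60.8% in the control libraries. For 7479 events with a mean PSI between 5 and 95%, pairs of KIN17(K23N) libraries differed by 11.2 to 11.6 percentage points on average and pairs of control libraries by 10.5 to 11.5. No pair of libraries was a copy of another.

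Alternative 3’ splicing gave the most called events, nearly all with more use of the upstream site. An event was called when limma, fitted to the log2 ratio of both forms in all 15 libraries, gave an adjusted p under 0.05 and ΔPSI was over 20 points in size. Of the 12870 alternative 3’ events tested, 187 were called (1.45%). The upstream site was used more in KIN17(K23N) at 182 of them (1.41% of the events tested) and the downstream site at 5 (0.0389%). The median ΔPSI was 27.1 points over the called events and 0.0487 points over all events tested. A second rule asked that all 9 pairwise differences between a KIN17(K23N) and a control library be over 15 points in the same direction, with a mean over 20. It passed 165 alternative 3’ events (1.28%), 149 toward the upstream site (1.16%) and 16 toward the downstream site (0.124%), and 123 events met both rules. The study used this rule and then inspected the reads in a browser, and it reports fewer alternative 3’ events for KIN17(K23N). Without a threshold on ΔPSI, 304 events had an adjusted p under 0.05 (2.36%), of which 284 moved toward the upstream site (2.21%) and 20 toward the downstream site (0.155%). At an unadjusted p under 0.05 there were 1473. The libraries of both strains did not overlap in 12.3% of the events tested and in all 187 called events. At the called events below a lack of overlap thus goes with how they were chosen and is no further result.

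The number of calls depended on single libraries and on the fit. Without KIN17(K23N) replicate 1 the fit called 74 alternative 3’ events, without KIN17(K23N) replicate 2 it called 69, and without control replicate 2 it called 95. Of these calls, 68, 63 and 88 were toward the upstream site. Without each of the other 3 libraries there were 147 to 197 calls. A fit to the 6 libraries alone, which has fewer libraries to estimate the spread, called 22 events, 14 of them toward the upstream site, and 9 of the 22 were among the 187. In 173 of the 187 called events no library was at 0 or 100%.

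Most called events are pairs of 3’ sites that lie a few bases apart. The following pairs are shown because they are events named in this section that the study lists with their sequences. Each sequence is read 5’ to 3’ as DNA, from 8 bases that end at the upstream site to the downstream site, and the capitals mark the AG at each site.
panl-3, 6 nt: ccaaaaAGttccAG
dab-1, 6 nt, first intron named: tataaaAGttccAG
dab-1, 6 nt, second intron named: aaaacaAGattcAG
ntl-4, 6 nt: attcgcAGttctAG
spat-2, 6 nt: tccaacAGtttcAG
cul-2, 6 nt: aatattAGttccAG
hecd-1, 6 nt: aagtctAGattcAG
pdzd-8, 6 nt: ctgattAGtttcAG
pdzd-8, 7 nt: tctaaaAGtctccAG
atx-2, 8 nt: ttatgaAGctttgaAG
eel-1, 9 nt: ttgaaaAGtaattccAG
pdzd-8, 9 nt: attttgAGacatttcAG
wnk-1, 9 nt: attaccAGtgttttcAG
In most of these pairs the downstream AG follows a C, while the base before the upstream AG varies. Of the alternative 3’ site pairs that the study lists with sequences for KIN17(K23N), chosen on these same libraries, 69 give a stretch as long as the distance between the sites. The downstream site ended in CAG in 58 of the 69 (84.1%) and in AAG in 6 (8.70%). The upstream site ended in CAG in 13 (18.8%) and in AAG in 42 (60.9%). A T stood at the fifth base from the end of the intron in 68 of the 69 downstream sites and in 17 of the 69 upstream sites. These shares describe the listed pairs only and were not compared with those of other introns.

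The called events gathered at distances of 6 and 9 nt between the sites. At 6 nt 90 of 1112 events were called (8.09%), 89 of them toward the upstream site. At 9 nt 53 of 921 were called (5.75%), all 53 toward the upstream site. At 12 nt there were 10 of 428 (2.34%) and at 7 or 8 nt 18 of 1787 (1.01%). At 3 nt 0 of 797 events were called, and 5 of those had a limma adjusted p under 0.05, of which 4 moved toward the downstream site. Where both sites were used at 3 nt, the control medians were already 80.5% to 83.8%, so many events had no room for a call toward the upstream site. At 19 to 50 nt 3 of 2009 were called (0.149%). Distances that are a multiple of 3, which leave the reading frame as it is, made up 159 of the 187 calls, among 4397 such events tested (3.62%). The other distances had 28 calls among 8473 events (0.330%).

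**Figure D1:**
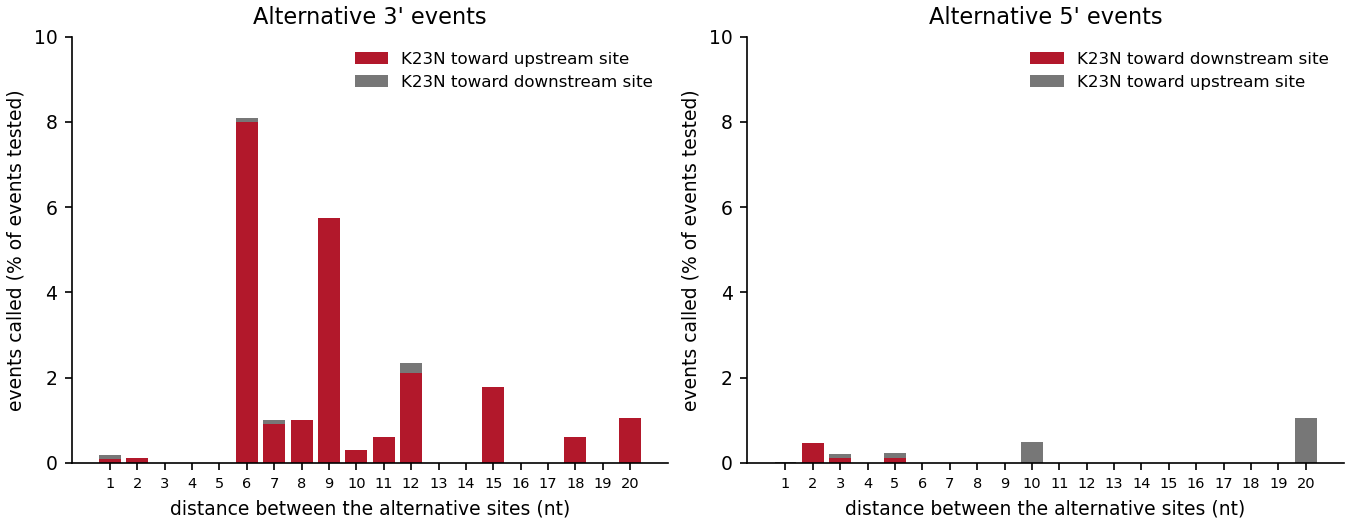
Share of events called in KIN17(K23N) against the smg-4 control (y axis, percent of the events tested at that distance) by the distance between the alternative sites in nt (x axis, 1 to 20), for alternative 3’ events on the left and alternative 5’ events on the right. The share of 3’ events called is 8.09% at 6 nt and 5.75% at 9 nt, nearly all toward the upstream site, and 5’ events reach 0.462% at 2 nt.

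Medians over all events in which both sites were used were higher in KIN17(K23N) at these distances. Those events include all 90 called at 6 nt and 52 of the 53 called at 9 nt, so the medians are no separate support. Among events with a mean PSI of 5 to 95% over all 15 libraries, 632 had sites 6 nt apart. The range is set by the mutant strains as well as the control, so events can enter it through strains in which they are high. Their median PSI was 53.3%, 52.2% and 47.3% in the KIN17(K23N) libraries, against 36.2%, 30.4% and 34.8% in the control libraries. The groups of libraries did not overlap, and the third KIN17(K23N) library was the lowest of its strain and the second control library the lowest of its own. Use of the upstream site was higher in KIN17(K23N) at 82.9% of these events, with a median ΔPSI of 10.9 points. Over all 1112 events tested at 6 nt the median ΔPSI was 1.76 points. For 437 events 9 nt apart the medians were 54.9%, 52.5% and 49.2% in KIN17(K23N), against 42.6%, 35.9% and 39.8% in the control. The share that was higher was 78.0%, with a median ΔPSI of 8.33 points, against 0.68 points over all 921 events tested at 9 nt. For 164 events 3 nt apart the medians were 81.7%, 81.9% and 80.8% in KIN17(K23N), against 80.5%, 81.8% and 83.8% in the control. The libraries of both strains overlapped there, and 50.6% of the events were higher. With control medians this high, upstream use had less room to rise than at 6 or 9 nt.

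**Figure D2:**
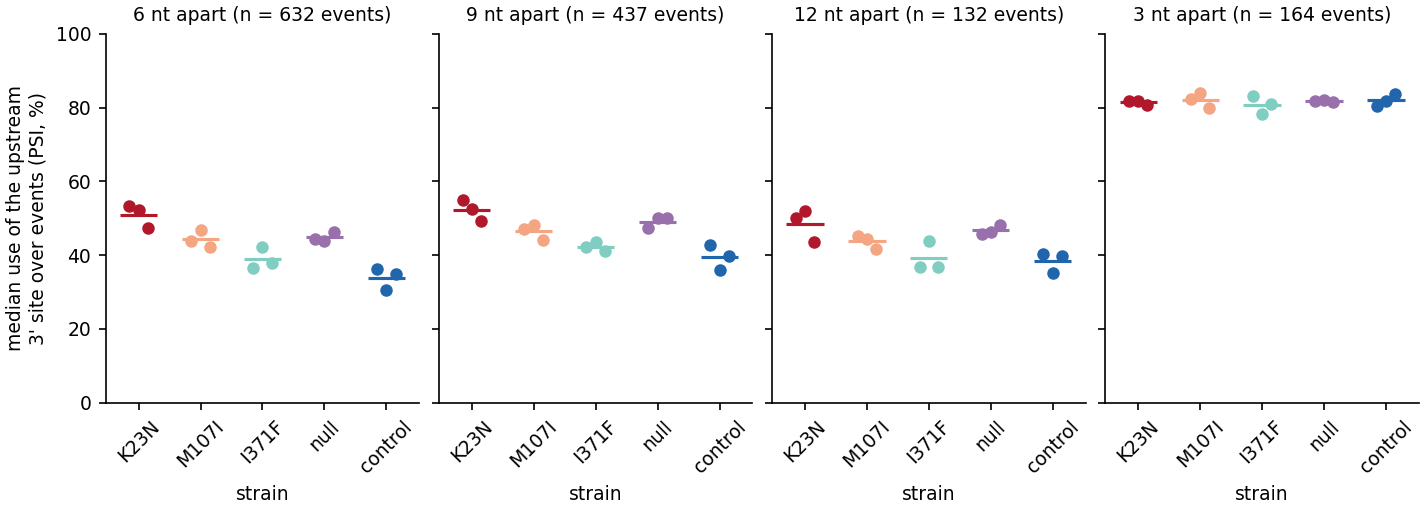
Median use of the upstream 3’ site (PSI in percent, y axis) over events with sites 6, 9, 12 or 3 nt apart, for each library (points) of the 5 strains (x axis, horizontal line at the mean of 3 libraries), over events with a mean PSI of 5 to 95%. At 6 nt the KIN17(K23N) libraries lie between 47.3% and 53.3% and the control libraries between 30.4% and 36.2%. At 3 nt all 5 strains overlap, with control medians of 80.5% to 83.8% that leave less room for a rise.

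The median control PSI of the called events was 34.2%. Of the 1682 events with a control PSI of 20 to 80%, 138 were called (8.20%), against 48 of 4708 below that range (1.02%) and 1 of 6480 above it (0.0154%). Above 80% the threshold of 20 points leaves no room for a call toward the upstream site, so this last share is fixed by the rule. Introns under 100 nt held 109 calls among 7776 events (1.40%), and longer introns 78 among 5094 (1.53%). By chromosome the share called was 2.07% on I, where dxbp-1 lies, and 0.946% on X, with 1.16% to 1.54% on II to V. A gene name was given to 168 of the 187 called events, which lay in 150 genes. In wnk-1, a kinase of osmotic and ion balance, 3 of 4 events tested were called, and in pdzd-8 3 of 7. In dab-1 both events tested were called.

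Genes of RNA decay and translation control were among those named. At atx-2, which encodes the RNA-binding protein ataxin-2, the event at III:10467088-10467281 (build ce10, as for all positions given here) has sites 8 nt apart. The PSI was 75.3%, 74.5% and 68.5% in KIN17(K23N), against 26.6%, 22.2% and 29.9% in the control. The downstream site was the main one in every control library and the upstream site in every KIN17(K23N) library. The mean difference was 46.5 percentage points and the log2 ratio differed by 2.86 (SE 0.29, limma adjusted p = 0.0013). The other events of atx-2 with a PSI stayed at 100% in all 6 libraries. At panl-3, a subunit of a poly(A) nuclease, the event at III:9819793-9820145 has sites 6 nt apart. Its PSI was 83.8%, 79.4% and 73.6% in KIN17(K23N), against 40.5%, 28.2% and 32.7% in the control. The lowest KIN17(K23N) library lay far above the highest control library. The mean difference was 45.1 percentage points and the log2 ratio differed by 2.84 (SE 0.35, limma adjusted p = 0.0039). Of the other 3 events of panl-3 none was called, and the one with sites 9 nt apart had 12.2 ± 1.98% in KIN17(K23N) and 3.60 ± 3.30% in the control (SD, n = 3 each, adjusted p = 0.15).

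The same direction was seen in other decay genes. At ntl-4, a ubiquitin ligase of the CCR4-NOT complex, the PSI was 74.04%, 77.8% and 69.2% in KIN17(K23N), against 42.8%, 27.2% and 42.8% in the control (ΔPSI 36.1 percentage points, adjusted p = 0.0059). At edc-4, which encodes a decapping factor, 2 introns were called. At one the PSI was 61.6 ± 7.56% in KIN17(K23N) and 27.6 ± 6.40% in the control (SD, n = 3 each, adjusted p = 0.0059). At the other it was 75.5 ± 2.60% in KIN17(K23N) and 49.3 ± 6.46% in the control (adjusted p = 0.0082). At smg-8, a regulator of the decay kinase SMG-1, it was 84.1 ± 2.84% in KIN17(K23N) and 55.4 ± 4.79% in the control (adjusted p = 0.0059). The gene smg-4, mutated in both strains, also had a called event. Its sites lie 7 nt apart at V:9776227-9776706, and the PSI was 63.2%, 58.3% and 51.9% in KIN17(K23N), against 38.1%, 33.1% and 36.7% in the control (ΔPSI 21.8 percentage points, adjusted p = 0.013); it did not pass the pairwise rule and was chosen after its values were seen. Of 60 alternative 3’ events in a list of 30 genes of mRNA decay and deadenylation, 6 were called, all toward the upstream site, with a median ΔPSI of 0.14 points. Over all 8823 alternative 3’ events with a gene name 168 were called (1.90%), with a median of 0.06 points. In a list of 50 splicing factors 1 of 57 events was called, in etr-1, with a median ΔPSI of 0.02 points. The gene lists here and below were chosen with earlier results of these data known, so their counts are a description and no test.

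Growth and membrane signalling genes followed. In let-363, the TOR kinase that couples nutrients to growth, 2 of 4 events were called. With sites 9 nt apart the PSI was 71.2%, 70.5% and 66.7% in KIN17(K23N), against 32.5%, 20% and 34.4% in the control (ΔPSI 40.5 percentage points, adjusted p = 0.0053). With sites 12 nt apart it was 71.03%, 54.9% and 51.3% in KIN17(K23N), against 26.3%, 6.67% and 25.9% in the control (ΔPSI 39.4 percentage points, adjusted p = 0.019). The libraries did not overlap at either intron. At rict-1, a partner of TOR, the values were 92.9%, 87.5% and 73.1% in KIN17(K23N), against 50%, 44.4% and 44.4% in the control, which passed the pairwise rule but not limma (adjusted p = 0.18). At ppk-3, a phosphoinositide kinase of endosomes and lysosomes, the PSI was 61.9%, 78.6% and 66.7% in KIN17(K23N), against 16.7%, 38.5% and 14.3% in the control (ΔPSI 45.9 percentage points, adjusted p = 0.016). Of 39 events in a list of 27 genes of TOR and insulin signalling the 2 in let-363 were called, and the median ΔPSI was 0.74 points. Over all alternative 3’ events with a gene name the share called was 1.90%.

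Ubiquitin ligases gave the event with the largest change among those with a gene name. At ubr-4, a large ligase of the N-end rule pathway, the event at I:4631785-4632663 has sites 9 nt apart. The PSI was 77.4%, 72.2% and 63.2% in KIN17(K23N), against 0%, 0% and 0% in the control. The upstream site was thus not seen in any control library and was the main site in every KIN17(K23N) library. The mean difference was 70.9 percentage points and the log2 ratio differed by 7.94 (SE 0.30, limma adjusted p = 3.6e-07). In KIN17(M107I) it was 58.5%, 54% and 56.9% and in PRCC(null) 64.9%, 56.1% and 55.6%, so that of these strains only the control was at 0. The PSI of PRCC(I371F) at this event is not given here. At eel-1, a HECT ligase, the PSI was 56.9%, 59.2% and 54.2% in KIN17(K23N), against 19.6%, 13.3% and 25% in the control (ΔPSI 37.4 percentage points, adjusted p = 0.0048). The ligase gene hecd-1 had 58.5 ± 7.15% in KIN17(K23N) and 29.1 ± 7.21% in the control (SD, n = 3 each, adjusted p = 0.036). The cullin scaffold cul-2 had 57.6 ± 1.98% in KIN17(K23N) and 34.5 ± 6.58% in the control (adjusted p = 0.023). For the HECT ligase wwp-1 the means were 39.6 ± 5.87% in KIN17(K23N) and 11.8 ± 2.67% in the control (adjusted p = 0.0039). The deubiquitinase gene usp-5 had 64.9 ± 4.13% in KIN17(K23N) and 35.3 ± 4.43% in the control (adjusted p = 0.0061). In a list of 33 genes of the ubiquitin pathway 6 of 58 events were called, all toward the upstream site, with a median ΔPSI of 0.08 points. The share called over all alternative 3’ events with a gene name was 1.90%. As the list was chosen with earlier results known, this count is a description only.

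Genes of cell shape, polarity and the nervous system were named as well. The 3 called introns of pdzd-8, which encodes a lipid transfer protein of the endoplasmic reticulum, lie at IV:8981276-8981752, IV:8983566-8983755 and IV:8983767-8984006. With sites 6 nt apart the PSI was 79.9%, 77.8% and 66.4% in KIN17(K23N), against 33.7%, 30.8% and 26.04% in the control (ΔPSI 44.5 percentage points, adjusted p = 0.0027). With sites 9 nt apart it was 77.7%, 63.8% and 58.3% in KIN17(K23N), against 30.99%, 15% and 26.1% in the control (ΔPSI 42.6 percentage points, adjusted p = 0.0059). With sites 7 nt apart it was 70.6 ± 7.38% in KIN17(K23N) and 32.3 ± 8.08% in the control (SD, n = 3 each, adjusted p = 0.013). At dab-1, an endocytic adaptor, the called introns had ΔPSI of 36.5 and 30.6 points (adjusted p = 0.0056 and 0.0092). In wnk-1, chosen after its values were seen, the event with sites 9 nt apart had 66.7 ± 7.03% in KIN17(K23N) and 34.4 ± 8.75% in the control (adjusted p = 0.013). For sax-7, a neuronal adhesion molecule, the PSI was 57.5 ± 6.99% in KIN17(K23N) and 26.9 ± 7.25% in the control (adjusted p = 0.027), and the call was lost in 4 of the 6 fits that leave out 1 library. For unc-57, the endophilin of synaptic vesicle recycling, it was 74.6 ± 5.10% in KIN17(K23N) and 44.7 ± 5.42% in the control (adjusted p = 0.0059). In a list of 30 genes of the synapse and axon 5 of 31 events were called, with a median ΔPSI of 0.57 points. Of these, 4 were toward the upstream site and 1 toward the downstream site, in unc-73, whose allele differs between the strains. The share called over all alternative 3’ events with a gene name was 1.90%. This list too was chosen with earlier results known, so its count is a description only.

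For genes known from the germline and the early embryo, spat-2 had 71.3 ± 0.910% in KIN17(K23N) and 37.1 ± 6.79% in the control (SD, n = 3 each, adjusted p = 0.0039). The zygote polarity scaffold par-3 had 53.97 ± 0.918% in KIN17(K23N) and 30.98 ± 6.92% in the control (adjusted p = 0.018). The spindle microtubule-binding protein gene cls-2 had 83.7 ± 4.93% in KIN17(K23N) and 55.7 ± 4.38% in the control (adjusted p = 0.017). Of 67 events in a list of 45 such genes, which shares atx-2 and panl-3 with the accounts above, 5 were called, and the median ΔPSI was 0. The share called over all alternative 3’ events with a gene name was 1.90%, and this list was also chosen with earlier results known. The study ties the upstream 3’ sites of atx-2, panl-3 and lmd-1 to the germline. At lmd-1 the event with sites 8 nt apart had 31.3%, 35.7% and 25.7% in KIN17(K23N), against 33.6%, 27.5% and 31.4% in the control, with overlapping libraries (ΔPSI 0.101 points, limma adjusted p close to 1). In these mixed-stage libraries a different share of germline and embryos and a different choice of site within cells cannot be told apart. The tables hold no expression levels from which markers could be read. The study itself tested these sites by RT-PCR in synchronized larvae and adults and saw no difference between control and KIN17 mutants. It also found germline terms most common among genes with changed expression in KIN17(K23N). An overlap of the 3’ events of the mutants with germline events from its earlier work is reported too. In its counts all mutant strains gave fewer adult progeny than the control. The study proposes that changed population dynamics may underlie the 3’ changes. Among regulators of transcription, taf-1, a subunit of TFIID, had 88.9%, 85.2% and 78.9% in KIN17(K23N), against 57.1%, 20% and 33.3% in the control (ΔPSI 47.5 percentage points, adjusted p = 0.017). The zinc finger gene lin-13 had 92.98%, 93.3% and 82.98% in KIN17(K23N), against 66.7%, 33.3% and 46.2% in the control (ΔPSI 41.05 percentage points, adjusted p = 0.016).

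**Figure D3:**
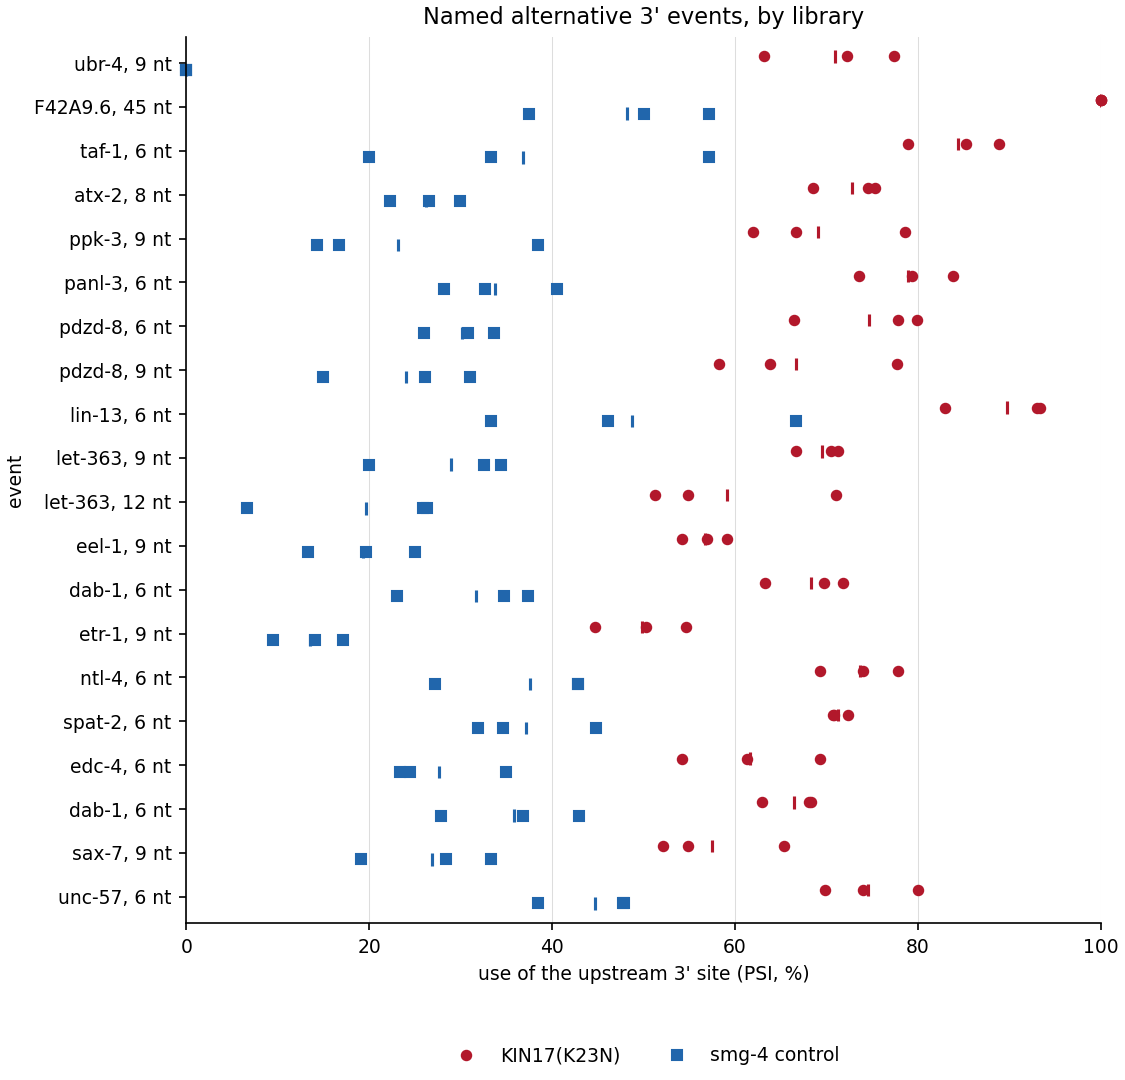
Use of the upstream 3’ site (PSI in percent, x axis) in each library of KIN17(K23N) (circles) and of the smg-4 control (squares) for 20 named, called alternative 3’ events with a gene name, ordered by ΔPSI, with the distance between the sites after the gene. Short vertical lines are means of 3 libraries, and in every event shown all KIN17(K23N) libraries lie to the right of all control libraries.

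Several of the largest differences stood at the ends of the scale, in events without a gene name. At II:100050-100245 the PSI was 100% in all KIN17(K23N) libraries and 0 in all control libraries (ΔPSI 100 percentage points, adjusted p = 0.036), and the call was lost when any 1 of the 6 libraries was left out. At X:11882343-11882507 it was 50%, 100% and 100% in KIN17(K23N), against 0 in all control libraries, and all libraries of the other mutant strains were at 71.4% or more. The opposite was seen at V:6395161-6403938, where the PSI was 0 in KIN17(K23N) and in the other mutant strains and 50% in each control library. At X:17209060-17209242, with sites 6 nt apart, the downstream site was favoured, with 0%, 0% and 0% in KIN17(K23N), against 33.3%, 33.3% and 30% in the control (ΔPSI −32.2 percentage points, adjusted p = 0.0082). At F42A9.6 the sites lie 45 nt apart, and the PSI was 100% in all KIN17(K23N) libraries, against 57.1%, 50% and 37.5% in the control (ΔPSI 51.8 percentage points, adjusted p = 0.0039). Values such as 0, 50% and 100% in replicates can arise from few reads, and their depth was not known.

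The unc-73 gene differs in its allele between the strains, and the e936 mutation lies at a 5’ splice site and brings cryptic sites into use. One of these lies 23 nt into the intron. The study reports that a further base change in e936az30 abolishes the use of that site, and that az63 mimics e936. In the intron at I:4021687-4022022 the sites lie 1 nt apart, and use of the upstream site was 59.1%, 66.7% and 76.9% in KIN17(K23N), against 100% in all control libraries. It was 100% in every PRCC(I371F) and PRCC(null) library and in both KIN17(M107I) libraries with a PSI. The mean difference was −32.4 percentage points and the log2 ratio differed by −5.59 (SE 0.32, limma adjusted p = 2.1e-05). The use of a 5’ site 23 nt downstream in the same interval was 0 in all libraries of both strains, whereas KIN17(M107I), which carries the allele unc-73(az63), had 73.3%, 100% and 84%. At I:4023687-4024347 the PSI was 11.6%, 20.9% and 15.4% in KIN17(K23N), against 0 in all control libraries (ΔPSI 15.98 points, adjusted p = 0.0039), below the threshold on ΔPSI. The part of the unc-73 allele in these values was not tested, and no event was matched to dxbp-1. A change of 1 amino acid such as K23N could not be read from PSI in any case.

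Fewer alternative 5’ events were called. Of the 15848 alternative 5’ events tested, 17 were called (0.107%), 10 toward the downstream site (0.0631%) and 7 toward the upstream site (0.0442%). The pairwise rule passed 72 (0.454%), 40 of them toward the downstream site (0.252%) and 32 toward the upstream site (0.202%), and all 17 called events were among the 72. The study, which also inspected the reads of each event in a browser, kept far fewer alternative 5’ events for KIN17(K23N). Most of the 72 were thus not among the events it reports. Without a threshold on ΔPSI, 90 events had an adjusted p under 0.05 (0.568%), of which 67 moved toward the downstream site (0.423%) and 23 toward the upstream site (0.145%). At an unadjusted p under 0.05 there were 1195, and the libraries of both strains did not overlap in 8.55% of the events tested. With 1 of the 6 libraries left out there were 18 to 26 calls, the most without control replicate 2. A fit to the 6 libraries alone called 1. Control libraries stood at 0 or 100% in all 3 replicates at 9 of the 17 called events. In 14 of the 17 the control libraries lay apart from every library of all 4 mutant strains, and in none did the KIN17(K23N) libraries lie apart from those of all other strains. Among the 187 called alternative 3’ events these counts were 74 and 87. Both sets were chosen for a difference between KIN17(K23N) and the control. The share over all events tested is not given here, so the counts are a description only.

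The clearest group among them had sites 2 nt apart, so that the downstream site begins right after the GU of the upstream site. At this distance 5 of 1083 events were called (0.462%), all 5 toward the downstream site. Sequences are shown for 3 events of this kind and for 1 event with sites 1 nt apart that the study names, since the bases shared by both sites can be seen in them. They run from the upstream site into the intron, 5’ to 3’ as DNA, with the first bases of the intron that the downstream site gives in capitals.
spas-1, 2 nt: gtGTttagtttggtt
F59A7.5, 2 nt: gtGTtcgaattgaaatt
M60.6, 2 nt: gtGTgaccgtatt
T21H3.9, 1 nt: gTTagttatttag
In the events 2 nt apart both introns begin with GT, and in T21H3.9 the shorter intron begins with TT. At spas-1, which encodes the microtubule-severing protein spastin, the event at V:9176513-9176746 had 34.5%, 38.9% and 27.5% in KIN17(K23N), against 0 in all control libraries. The mean difference was 33.7 percentage points and the log2 ratio differed by 5.69 (SE 0.45, limma adjusted p = 2.2e-04). At cec-10, a chromodomain gene, the PSI was 40%, 42.3% and 41.7% in KIN17(K23N), against 2.82%, 0% and 2.63% in the control (ΔPSI 39.5 percentage points, adjusted p = 0.0012). At F59A7.5 it was 52.9%, 39.1% and 36.7% in KIN17(K23N), against 5.62%, 1.77% and 5.32% in the control (ΔPSI 38.7 percentage points, adjusted p = 0.0019). At usp-5 it was 26.2%, 33.8% and 33.8% in KIN17(K23N), against 4.90%, 1.19% and 1.30% in the control (ΔPSI 28.8 percentage points, adjusted p = 0.003). The downstream site was thus nearly unused in the control in all 4 genes and was used in every KIN17(K23N) library, though never beyond 52.9%. The fifth event, at II:9579170-9579806, had 42.9%, 31.6% and 44.4% in KIN17(K23N), against 5.56%, 0% and 0% in the control.

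**Figure D4:**
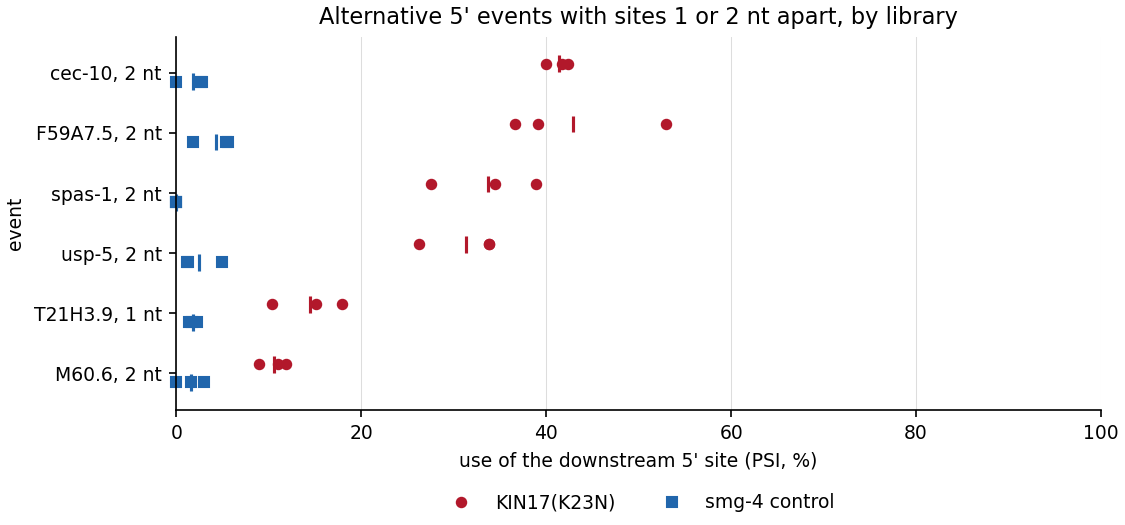
Use of the downstream 5’ site (PSI in percent, x axis) in each library of KIN17(K23N) (circles) and of the smg-4 control (squares) for 6 alternative 5’ events with sites 1 or 2 nt apart, with means of 3 libraries as short vertical lines. All control libraries lie at or below 5.62%, and the KIN17(K23N) libraries lie between 8.89% and 52.9%.

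Smaller shifts of the same direction fell short of the threshold on ΔPSI. At T21H3.9, with sites 1 nt apart at V:17655665-17655863, the PSI was 17.9%, 10.3% and 15.1% in KIN17(K23N), against 1.35%, 1.66% and 2.22% in the control (ΔPSI 12.7 percentage points, adjusted p = 0.0051). At M60.6 it was 11.9%, 8.89% and 10.96% in KIN17(K23N), against 0%, 1.61% and 2.97% in the control (ΔPSI 9.04 percentage points, adjusted p = 0.046). The libraries did not overlap at either gene. Of the 3541 events with sites 1 nt apart, 1 was called, with a ΔPSI of −23.3 points, toward the upstream site. An adjusted p under 0.05 was found for 27, of which 21 moved toward the downstream site. At 4 nt 0 of 4236 events were called by limma, with 8 at an adjusted p under 0.05. The median ΔPSI over all events tested was 0 at 1, 2 and 4 nt.

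The largest 5’ differences had no gene name. At III:2265392-2265977 the PSI was 100% in all KIN17(K23N) libraries and 0 in all control libraries, with sites 47 nt apart. At II:9623367-9623619, with sites 21 nt apart, it was 82.9%, 82.9% and 90.3% in KIN17(K23N), against 16.7%, 20% and 25% in the control (ΔPSI 64.8 percentage points, adjusted p = 0.0011), and PRCC(I371F) had 86.8%, 80.4% and 90.6%. At II:7662804-7662986, with sites 3 nt apart, the upstream site was favoured, with a PSI of 65.5%, 58.8% and 55.6% in KIN17(K23N), against 100% in all control libraries (ΔPSI −40.03 percentage points, adjusted p = 6.6e-04). Others of this kind lay at III:8193121-8193466, II:11127102-11127282, III:8193160-8193466 and II:12148031-12148475, with ΔPSI of 83.3, 80.6, −50.2 and −45 points. The first and the third of these lie in overlapping intervals, and both calls were lost when any KIN17(K23N) library, control replicate 1 or control replicate 2 was left out. The call of the second was lost without any 1 of the control libraries. Of the 6 gene lists, the ubiquitin pathway alone held a called alternative 5’ event, that of usp-5 (1 of 40 events), beside 6 of 10929 over all alternative 5’ events with a gene name (0.0549%). A single call says nothing about the list.

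Of the annotated events, 2006 varied and were tested, and 73 were called (3.64%), 34 toward the included form (1.69%) and 39 toward the excluded form (1.94%). The pairwise rule passed 35 of 2311 (1.51%), 19 toward the included form (0.822%) and 16 toward the excluded form (0.692%). Without a threshold on ΔPSI, 208 had an adjusted p under 0.05 (10.4%), 115 toward the included form (5.73%) and 93 toward the excluded form (4.64%), and the libraries of both strains did not overlap in 22.9%. Without control replicate 2 there were 43 calls and without KIN17(K23N) replicate 1 there were 47, and a fit to the 6 libraries alone called 12. By class the calls were 23 of 527 skipped exons, 19 of 207 alternative last exons, 16 of 429 alternative first exons, 12 of 632 retained introns, 2 of 70 mutually exclusive exons and 1 of 141 multiple skipped exons. In 17 of the 19 called last exons the PSI in the 6 libraries was that of an alternative 3’ event or 100% minus it, within 0.01 points, and these came from 13 events. The last exons of pdzd-8, unc-57, sax-7 and smg-4 are thus the 3’ sites described above counted again.

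Exon inclusion changed in both directions. At C06A6.4 the exon at IV:7827409-7827450, of 42 nt, was included at 65.1%, 66.8% and 58.4% in KIN17(K23N), against 27.4%, 21.9% and 27.5% in the control. The mean difference was 37.8 percentage points and the log2 ratio differed by 2.29 (SE 0.18, limma adjusted p = 8.2e-05). At etr-1, which encodes an RNA-binding protein of the CELF family, the exon at II:168175-168393, of 219 nt, was included at 78.7%, 82.5% and 77.2% in KIN17(K23N), against 43.8%, 43.7% and 46.3% in the control (ΔPSI 34.9 percentage points, adjusted p = 0.0021). The intron before the preceding exon of etr-1 held the called alternative 3’ event of this gene, with 49.9 ± 4.98% in KIN17(K23N) and 13.6 ± 3.86% in the control (SD, n = 3 each). At frpr-9, a peptide receptor gene, the exon had 33.3%, 0% and 20% in KIN17(K23N), against 55.6%, 81.8% and 100% in the control, without passing limma (adjusted p = 0.12). Exons chosen after their values were seen were those of asd-1, a splicing factor of the Fox-1 family, where 3 of 4 events were called with ΔPSI of 25.8, 26.9 and 26.9 points, and gfat-1, an enzyme of hexosamine synthesis, with 8.38 ± 2.56% in KIN17(K23N) and 39.8 ± 3.98% in the control (adjusted p = 6.3e-04). In the list of splicing factors 4 of 31 annotated events were called, those of asd-1 and etr-1, with a median ΔPSI of 0.51 points. The lists of the synapse and axon (3 of 27) and of mRNA decay (1 of 8) held only last exons of the kind counted again. Over all annotated events with a gene name 64 of 1601 were called, with a median ΔPSI of 0.

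Of the first exons, introns and exclusive exons, those with the largest differences among the events that passed the pairwise rule are given here. Called introns that did not pass it reached ΔPSI of 52.4 and −35.1 points, and in the first of these the libraries of both strains met at 44.4%. At erm-1, which links the apical membrane to actin, the first exon farther from the shared exon was used at 69.4%, 75.5% and 68.7% in KIN17(K23N), against 40%, 28.2% and 31.02% in the control (ΔPSI 38.1 percentage points, adjusted p = 1.1e-04). At pyk-1, a pyruvate kinase, the farther first exon had 84.4%, 72.4% and 62.9% in KIN17(K23N), against 41.9%, 25% and 25.8% in the control (ΔPSI 42.3 percentage points, adjusted p = 0.014). At cup-14 it had 53.2 ± 3.64% in KIN17(K23N) and 89.6 ± 6.85% in the control (SD, n = 3 each, adjusted p = 0.022). An intron of Y110A7A.21 of 51 nt was retained at 70.1%, 62% and 56.7% in KIN17(K23N), against 36%, 34.1% and 30.3% in the control (ΔPSI 29.5 percentage points, adjusted p = 0.0019). An intron of igcm-3 of 300 nt was retained at 57.6%, 60% and 64.6% in KIN17(K23N), against 87.1%, 86.7% and 90.9% in the control (ΔPSI −27.5 percentage points, adjusted p = 0.0011). For gar-2, a muscarinic acetylcholine receptor, retention was 76.3 ± 2.57% in KIN17(K23N) and 44.8 ± 10.7% in the control, which passed the pairwise rule but not limma (adjusted p = 0.055). At gly-5, a glycosyltransferase, the exclusive exon of 111 nt had 49.04 ± 4.22% in KIN17(K23N) and 73.8 ± 5.14% in the control (adjusted p = 0.0014).

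**Figure D5:**
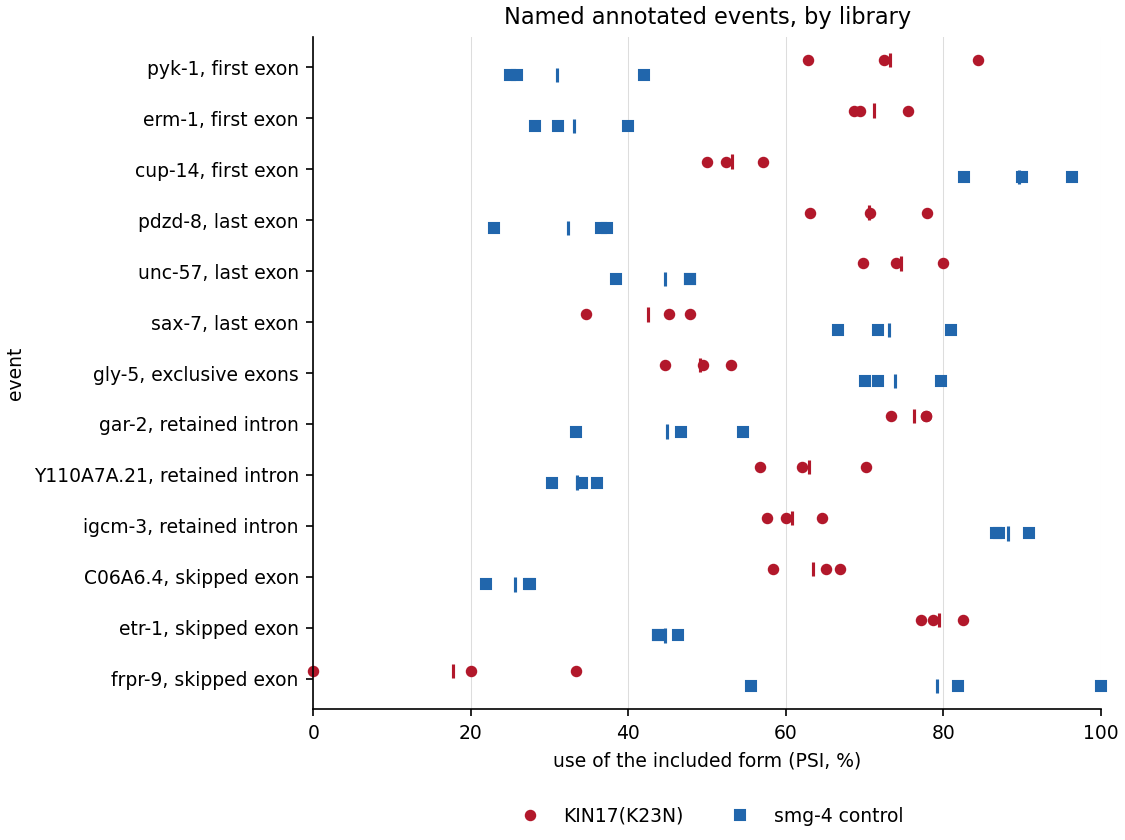
Use of the included form (PSI in percent, x axis) in each library of KIN17(K23N) (circles) and of the smg-4 control (squares) for 13 named annotated events, grouped by class, with means of 3 libraries as short vertical lines. The libraries of both strains do not overlap in any event shown, and the changes run in both directions.

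For single events, the smallest p of a two-sided exact permutation test with 3 libraries against 3 is 0.1, and 63 of the 70 named events reached it. Libraries that do not overlap give this p by arithmetic. Most of these events were chosen by rules that favour such libraries, so the count adds no support. Of the 33 named and called alternative 3’ events, 20 were called whichever of the 6 libraries was left out, among them atx-2, panl-3, ubr-4, eel-1 and both events of pdzd-8 with sites 6 and 9 nt apart. Without KIN17(K23N) replicate 2 the calls were lost for 13 of them, among them taf-1, lin-13, sax-7, hecd-1, cul-2, par-3, cls-2, ppk-3, the let-363 event with sites 12 nt apart and 1 event each of dab-1 and edc-4. In a fit to the 6 libraries alone 6 of the 33 were called, ubr-4, F42A9.6, the unc-73 event and 3 without a gene name, and atx-2 had an adjusted p of 0.053.

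KIN17(K23N) was also set against the other KIN17 mutant, KIN17(M107I). In the direct contrast 0 of 12574 alternative 3’ events were called by limma (1 with an adjusted p under 0.05 and 849 with an unadjusted p under 0.05). Leaving out 1 library of either strain gave 0 to 6 calls. For the 179 events called toward the upstream site and measured in every library of the series, the median difference from the control was 27.4 points in KIN17(K23N), 16.8 points in KIN17(M107I), 17.9 points in PRCC(null) and 9.91 points in PRCC(I371F). These events were chosen for their difference between KIN17(K23N) and the control, and all 4 values share the control libraries, so their order is a description and no test. At atx-2 the PSI of KIN17(M107I) was 53.5%, 60.4% and 57.2%, below every KIN17(K23N) library (difference 15.7 points, adjusted p = 0.56). At panl-3 it was 72.9%, 67.5% and 62.4%, and the difference of 11.3 points did not pass limma either (adjusted p = 0.701). Of 15530 alternative 5’ events 3 were called (0.0193%). Of 1994 annotated events 0 were called, with 0 at an adjusted p under 0.05 and 286 at an unadjusted p under 0.05.

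Against PRCC(I371F), 34 of 12592 alternative 3’ events were called (0.27%), 28 with more use of the upstream site in KIN17(K23N). This count was 9 without KIN17(K23N) replicate 1, 10 without replicate 2, and 15 and 16 without PRCC(I371F) replicates 1 and 3. At atx-2 the difference was 32.6 points (adjusted p = 0.01) and at spat-2 27.3 points (adjusted p = 0.017). Of 15572 alternative 5’ events 117 were called (0.751%), 80 with less use of the downstream site in KIN17(K23N). At T21H3.9 the PSI was 17.9%, 10.3% and 15.1% in KIN17(K23N), against 56.4%, 54.5% and 50.7% in PRCC(I371F) (difference −39.5 points, adjusted p = 5.0e-04). At M60.6 it was 11.9%, 8.89% and 10.96% in KIN17(K23N), against 52.9%, 59.6% and 60% in PRCC(I371F) (difference −46.9 points, adjusted p = 9.0e-04). At cec-10 the PSI of PRCC(I371F) was 74.8%, 79.3% and 74.5%, above every KIN17(K23N) library (adjusted p = 0.017), whereas at spas-1 it was 32.9%, 40.8% and 54% and overlapped with KIN17(K23N) (adjusted p = 0.57). Of 2004 annotated events 24 were called (1.2%).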

How the data were processed

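Per the labels and the methods of the study, poly(A) RNA libraries of mixed-stage worms were sequenced as paired reads. The authors used cutadapt, Bowtie2, STAR and SAMtools with genome build ce10, aligned with a STAR changed to accept UU/AG introns, and derived PSI with junctionCounts. The values deposited by the authors are a score for each form of an event, its PSI as a fraction times 1000. In 2 tables per library they hold alternative 5’ and 3’ events from the introns found, at most 50 nt apart, and events of EnsArch65. PSI was taken as included over included plus excluded score. Scores of exactly 1 and 999 were read as 0 and 100%, an assumption. Read depth is not given, so no count model or interval was used.

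The log2 ratio of both forms, with 0.01 added to each fraction, was fitted over all 15 libraries with limma 3.58.1 under R 4.3.3, with trend and robust options, and p was adjusted by Benjamini-Hochberg within 5’, 3’ and annotated events. All single-event adjusted p are from limma. The pairwise rule follows the study without its browser inspection. On simulated data limma called 97 of 100 3’ events changed by 30 points, 100 of 100 changed by 50 points and 0 of 8938 unchanged ones. The simulated depth and the simulated spread between libraries were both assumed and were not matched to these libraries. The simulated counts therefore give no rate of missed or false calls for these data.

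Events were named by matching intron lengths and distances to a gene of the WBcel235 annotation, or by the study’s list of events. Of 31029 events with a PSI in all 6 libraries, 69.3% got a name. In 178 events named both ways 167 names were the same, and most others were synonyms. No coordinates were converted. No event matched Y40B1A.1. Named were the 12 largest 3’ events and the 3 largest toward the downstream site, the 8 largest 5’ events, up to 3 per annotated class, events the study names, unc-73, and members of 6 gene lists that pass the pairwise rule. The members and lists were chosen with earlier results of these data known. p-values measure only the spread between these libraries.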

Additional observations from a re-analysis of the deposited data

Results flagged for a closer look

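Differences between mutant strains under the same smg-4 background gave 6 results to look at again, all by the direct limma contrast. Between KIN17(K23N) and KIN17(M107I), 3 alternative 5’ events differed. At unc-73 the downstream site 23 nt away was used at 0 in all KIN17(K23N) libraries, against 73.3%, 100% and 84% in KIN17(M107I) (difference −85.8 points, adjusted p = 0.0031). The 2 strains carry different alleles of unc-73, and their part was not tested. At IV:5397251-5397493, with sites 9 nt apart, the PSI was 28.6%, 35% and 35% in KIN17(K23N), against 0%, 0% and 0% in KIN17(M107I) (difference 32.9 points, adjusted p = 9.3e-04). The control had 41.7%, 26.3% and 43.2% and PRCC(I371F) 0 in all 3 libraries. At nhr-56, a nuclear hormone receptor gene, it was 0%, 0% and 0% in KIN17(K23N), against 43.8%, 15.8% and 10% in KIN17(M107I) (difference −23.2 points, adjusted p = 0.047). Leaving out 1 library of either strain gave 2 to 7 such events.

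Between KIN17(K23N) and PRCC(I371F), 34 alternative 3’ events, 117 alternative 5’ events and 24 annotated events differed. Of the 24 annotated events, 17 had more of the included form in KIN17(K23N) and 7 less. With 3 libraries a strain, no test for single outlying libraries was made.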

How the results depend on the processing

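Most alternative 3’ calls were toward the upstream site in every alternative, with 14 of 22 as the smallest share, while their number varied. The 187 alternative 3’, 17 alternative 5’ and 73 annotated calls against the control became 22, 1 and 12 with the 6 libraries only, and 304, 90 and 208 without a threshold on the mean difference. Without 1 of the 6 libraries they ranged from 69 to 197, from 18 to 26 and from 43 to 79. Other offsets, untransformed PSI, events present in all 15 libraries, events at one end of the scale kept and no trend kept each count within 1.5 times. The 165 alternative 3’ events of the pairwise rule became 259 and 90 with a smallest difference of 10 and 20 points, and the 35 annotated events became 61 and 19, or 17 with only events whose scores add up to 1000. With 1 library left out, which leaves 6 pairs to satisfy, the rule passed 231 to 357 alternative 3’, 148 to 170 alternative 5’ and 41 to 76 annotated events. Against KIN17(M107I), the 0 alternative 3’ and 3 alternative 5’ calls became 1 and 8 without the threshold and 1 and 1 with untransformed PSI, and 0 to 6 and 2 to 7 without 1 library. Against PRCC(I371F), the 34 and 117 calls became 103 and 1477 without the threshold, and 9 to 39 and 97 to 114 without 1 library.

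In alternatives chosen after seeing the data, 123 alternative 3’ and 32 annotated calls also passed the pairwise rule, 4 alternative 5’ calls had no library at either end of the scale, and adjusting over all classes together gave 26 alternative 5’ calls. The cause of these changes was not tested beyond the smaller number of libraries. The mean difference of no named and called event changed sign when 1 library was left out. Where the libraries of both strains do not overlap the sign cannot change, so this adds no support. No paired analysis was possible because the labels number no replicates that both strains share. Depth is unknown, so events at 0 or 100% may rest on few reads.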
